A study of Mus musculus with 8 samples.

Results

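The 10 genes of short-chain fatty acid transport, activation and sensing followed here were measured through the epithelium of the mouse cecum and colon. They are the carriers Slc16a1 and Slc16a3 with their chaperone Bsg, the acyl-CoA synthetases Acss1, Acss2 and Acsm3, the receptors Ffar2, Ffar3 and Hcar2, and the histone deacetylase Hdac3. Members were chosen by symbol, and all 10 were found among the 33696 genes of the deposited gene table. The series asks how microbe-made nicotinic acid bears on regional identity and injury of the large bowel. It used single-cell RNA-seq of sorted epithelial cells from germ-free (GF), antibiotic-treated (Abx) and control (Ctrl) mice. The cell table names groups GF, Abx_14D, Abx_4D and Ctrl for each tissue, each with 4 numbered samples. The meaning of 4D and 14D, which antibiotics were given, and the mice's strain, sex and age are absent from the sources used here. All groups share 1 sort of EPCAM-positive, CD45-negative cells in which CD44-positive and CD44-negative cells were taken 1:1. The balance of CD44-positive to CD44-negative cells was therefore set by the sort, so shares of cell classes here do not stand for those of the tissue. Cells were pooled by condition before sorting, and whether the numbers stand for different mice is not stated. A p-value here therefore speaks of the scatter among loaded samples, part of which may be technical.

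Bacteria in the large bowel ferment fibre to acetate, propionate and butyrate, which colonocytes take up and use as their main fuel. Uptake runs through the proton-coupled carrier MCT1, made from Slc16a1, which needs the glycoprotein basigin (Bsg) to reach the membrane, and through the sodium-coupled carrier made from Slc5a8. Inside the cell, acyl-CoA synthetases attach the acids to coenzyme A. Part of the signal passes through the G-protein-coupled receptors FFAR2, FFAR3 and HCAR2, the last of which binds both butyrate and nicotinic acid, and part through inhibition of histone deacetylases by butyrate.

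Cells with at least 500 transcripts were kept, 15916 in all. The colon Ctrl group then held 50 cells and the colon Abx_4D group 1026, of which 857 came from 1 sample, and neither was compared. The other groups held 4215 cells (colon GF), 3852 (colon Abx_14D), 1636 (cecum GF), 2296 (cecum Abx_14D), 1511 (cecum Abx_4D) and 1330 (cecum Ctrl), with 1821737 to 30127065 transcripts per sample. Cells were gated by summed marker transcripts into absorptive cells (differentiated colonocytes), crypt cells (stem-gated, S-phase and G2 or mitotic cells), goblet, enteroendocrine, tuft and immune cells. Absorptive markers made up 158 of every 10000 transcripts in the absorptive gate of the colon and 331 in that of the cecum, so absorptive cells of the colon carried fewer of them. In the crypt gate, 3659 of 4997 colon cells and 1451 of 3263 cecal cells were stem-gated. The immune list was low in the classes compared: 4 to 9 of its 11 markers were above 0 in absorptive and crypt cells, at 1.03 to 8.25 CPM summed, and 3 to 7 in goblet cells, at 2.62 to 10.6 CPM. Of 15441 barcode combinations, 462 occurred in more than 1 sublibrary, and 0 of them named more than 1 loaded sample.

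Levels are in CPM, a gene's transcripts scaled to 1000000 transcripts of the cells of 1 sample and class, and a sample entered a class only with 20 or more cells in it. The absorptive comparisons thus rest on 4 samples per group, except cecum Abx_4D (without sample 2) and cecum Ctrl (without sample 1), which had 3 each. CPM is not divided by transcript length, so levels are compared within a gene and not between genes. Fold changes are log2 values with their standard errors from edgeR's quasi-likelihood test, and a gene was called at a Benjamini-Hochberg adjusted p below 0.05 over all genes tested.

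**Figure D1:**
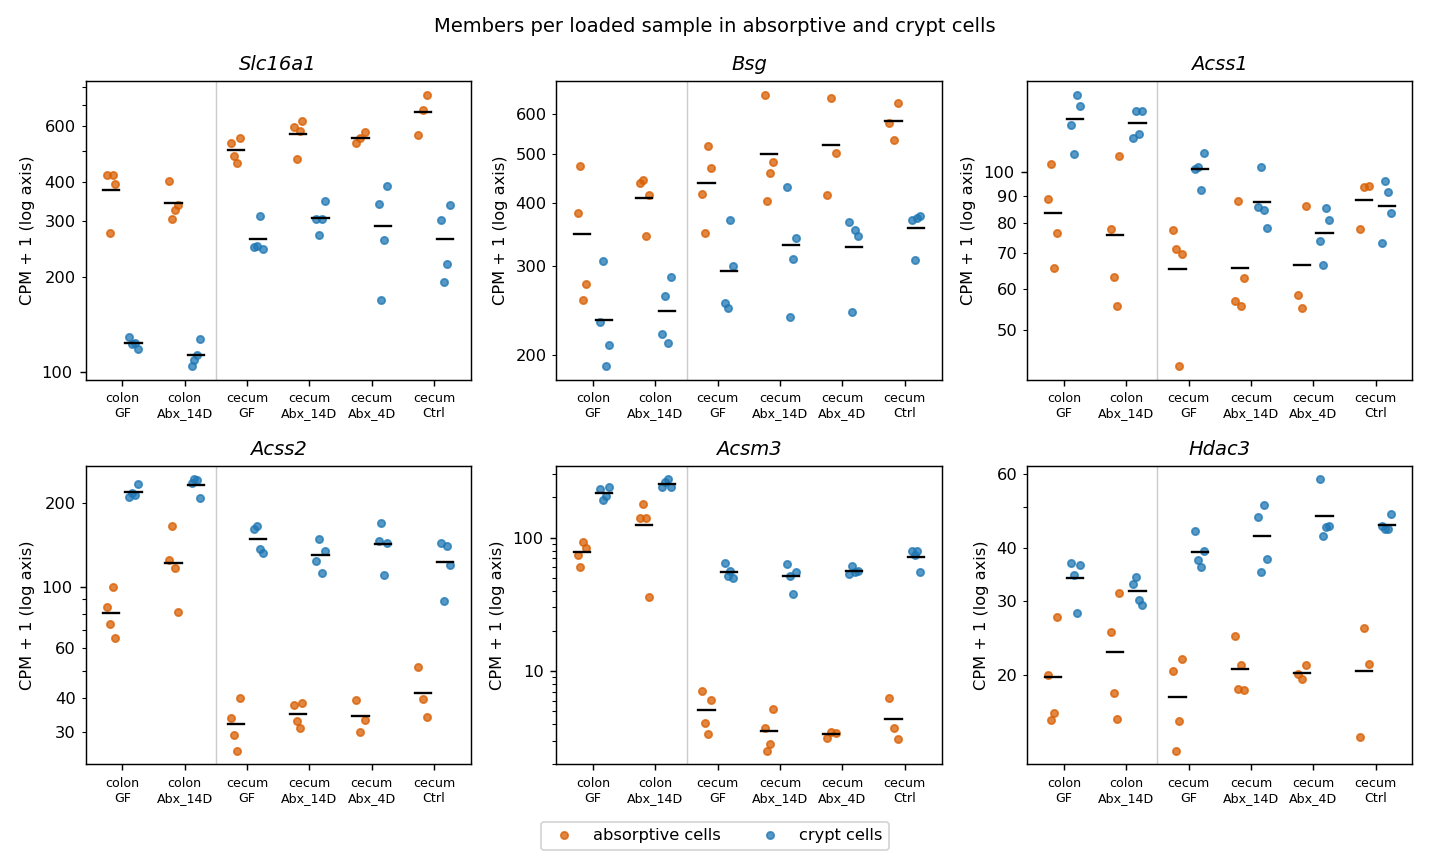
Level of Slc16a1, Bsg, Acss1, Acss2, Acsm3 and Hdac3 (CPM + 1, logarithmic axis) in absorptive and crypt cells, by tissue and group. Each loaded sample with at least 20 cells in the class is 1 point. Acsm3 and Acss2 stand higher in the colon and in crypt cells, Slc16a1 stands higher in the cecum and in absorptive cells, and the 4 cecal groups overlap for Bsg and Hdac3.

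Position along the crypt was compared first. In the cecum, absorptive cells against crypt cells tested 7 members, of which Acsm3 and Slc16a3 passed the low-count filter through 1 class alone, where they are high, so that a difference was built into their test. The other 5 were all called, 2 higher (Slc16a1, Bsg) and 3 lower (Acss1, Acss2, Hdac3), where 83.9% of all genes tested were called. In the colon, Ffar2 passed through crypt cells alone, and the other 6 were called, 2 higher (Slc16a1, Bsg) and 4 lower (Acss1, Acss2, Acsm3, Hdac3), against 70.3% of all genes. With so many genes called, these counts say little of the members as such. The split also depends on the scaling: TMM factors, which assume that most genes do not change, raised the all-gene median log2 fold change of -0.54 by 0.49 in the cecum and that of -0.28 by 0.20 in the colon.

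Region was compared next, in fits without the replicate number. In crypt cells, colon against cecum called 5 of the 6 members that passed the filter in both tissues in Abx_14D, 3 higher (Acsm3, Acss2, Acss1) and 2 lower (Slc16a1, Hdac3), where 37.4% of genes were called. In GF it called 4 of 6, the 3 higher as before and Slc16a1 lower, against 18.6% of genes, and with the replicate number as a block 1 of these, Acss1, was lost (adjusted p = 0.051). Ffar2 entered these fits through the colon alone. In absorptive cells Acsm3 entered through the colon alone, and the contrast called 2 of the other 5 in Abx_14D (Acss2 higher, Slc16a1 lower; background 23.4%) and 1 in GF (Acss2 higher; background 16.5%).

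Microbial condition gave no call of a member within a class and tissue. In cecal absorptive cells 0 of 6 members tested were called against Ctrl, in GF (background 12.9%), in Abx_14D (8.06%) and in Abx_4D (3.66%). The members with an unadjusted p below 0.05 numbered 3, 2 and 0 in that order, and DESeq2 called 1 member in GF (Slc16a1) and 0 in the others. GF against Abx_14D gave 0 of 6 there (background 2.7%) and so did Abx_14D against Abx_4D (0.0708%), with 0 members at an unadjusted p below 0.05 and 0 by DESeq2 in both. In cecal crypt cells 0 of 6 were called in GF (4.91%), Abx_14D (2.59%) and Abx_4D (0.604%) against Ctrl, with 1 member (Acsm3) at an unadjusted p below 0.05 in each. GF against Abx_14D gave 0 of 6 in cecal crypt cells (0.335%), 0 of 6 in colon absorptive cells (1.96%) and 0 of 7 in colon crypt cells (1.08%), with 0, 2 and 1 members at an unadjusted p below 0.05. DESeq2 called 0 members in all 6 of these crypt and colon comparisons.

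Slc16a1, the main proton-coupled carrier of butyrate in colonocytes, was higher in absorptive than in crypt cells of both tissues and lower in the colon than in the cecum. In cecal absorptive cells it stood at 528, 480.0, 457 and 549 CPM in GF, 594, 472, 577 and 619.8 CPM in Abx_14D, 529, 550.1 and 573 CPM in Abx_4D and 561, 676 and 754 CPM in Ctrl. In cecal crypt cells it stood at 248, 249.5, 312 and 244 CPM in GF, 304, 269, 303 and 346 CPM in Abx_14D, 339, 168, 259.6 and 387 CPM in Abx_4D and 301, 191, 219 and 337 CPM in Ctrl. Every absorptive value lay above every crypt value, with a log2 fold change of 0.99 ± 0.076 (adjusted p = 2.3e-11) with the loaded sample as a block. Colon absorptive cells held 420.4, 273, 419 and 392 CPM in GF and 402, 304, 325 and 337 CPM in Abx_14D, and colon crypt cells 128, 122, 122 and 117 CPM in GF and 103, 108, 112 and 126 CPM in Abx_14D. The classes did not overlap there either, and the difference was 1.60 ± 0.084 (adjusted p = 1.7e-11).

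Between tissues, the colon values of Slc16a1 in crypt cells all lay under the cecal values of the same group. The log2 fold change, colon over cecum, was -1.11 ± 0.10 in GF (adjusted p = 1e-07) and -1.45 ± 0.10 in Abx_14D (adjusted p = 2e-09). In absorptive cells it was -0.73 ± 0.15 in Abx_14D (adjusted p = 0.0011) and -0.42 ± 0.16 in GF (adjusted p = 0.067), again without overlap. With the gate thresholds doubled, which left 1 colon sample per group, it was -0.29 in Abx_14D. The GF difference passed with TMM factors (-0.55, adjusted p = 0.0092), with DESeq2 (-0.53, adjusted p = 0.0021) and with the replicate number as a block (-0.44, adjusted p = 0.035). In cells between 80 and 160 marker transcripts per 10000, a gate that brings the tissues to like marker content, the difference was -0.39 in GF (adjusted p = 0.33) and -0.78 in Abx_14D (adjusted p = 0.025). A wider set took all GF and Abx_14D cells of that score outside the goblet, enteroendocrine, tuft and immune gates, crypt-gated cells included. In it Slc16a1 averaged 318 CPM over 8 colon samples (lowest 233, highest 417) and 545 CPM over 7 cecal samples (lowest 454, highest 682).

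Slc16a1 in cecal absorptive cells lay close to the threshold between GF and Ctrl. All 4 GF values lay under all 3 Ctrl values, with a log2 fold change of -0.41 ± 0.16 (adjusted p = 0.1). It passed under other settings: the difference was -0.52 (adjusted p = 0.017) with TMM factors, -0.56 (adjusted p = 0.0004) with DESeq2 and -0.57 (adjusted p = 0.038) with the gate thresholds doubled. Abx_14D and Abx_4D gave -0.24 ± 0.16 and -0.27 ± 0.17 against the same Ctrl samples, and neither was called. In cecal crypt cells the GF difference was 0.0085 ± 0.20. The difference between the classes in the GF effect was -0.50 ± 0.16 (adjusted p = 0.079), and it passed with TMM factors (-0.61, adjusted p = 0.026), with DESeq2 (-0.58, adjusted p = 0.022) and without the low-count filter (-0.50, adjusted p = 0.036).

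Bsg, whose protein escorts MCT1 and MCT4 to the membrane, followed Slc16a1 between the classes but was not called between tissues. Cecal absorptive cells averaged 438 ± 72.6 CPM in GF, 499 ± 109 CPM in Abx_14D, 520.0 ± 117 CPM in Abx_4D and 579.6 ± 49.5 CPM in Ctrl (mean ± SD, n = 4, 4, 3 and 3). Cecal crypt cells averaged 292 ± 56.6 CPM in GF, 329 ± 80.1 CPM in Abx_14D, 326 ± 56.4 CPM in Abx_4D and 356 ± 32.5 CPM in Ctrl (n = 4 each). Absorptive over crypt, the log2 fold change was 0.61 ± 0.054 in the cecum (adjusted p = 2.6e-10) and 0.66 ± 0.073 in the colon (adjusted p = 2.5e-07).

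In the colon, Bsg read 231, 306, 189 and 208 CPM in GF crypt cells, against 252, 247, 369 and 299 CPM in cecal GF crypt cells. The Abx_14D values were 219, 261, 211 and 285 CPM in colon crypt cells, against 429.9, 237, 309 and 339 CPM in cecal ones. The ranges of the tissues overlap in both groups, with log2 fold changes of -0.32 ± 0.17 (GF, adjusted p = 0.23) and -0.43 ± 0.18 (Abx_14D, adjusted p = 0.059). The Abx_14D difference passed the threshold when cecum Abx_14D sample 2 (-0.56, adjusted p = 0.014) or colon Abx_14D sample 4 (-0.51, adjusted p = 0.046) was left out, and without the low-count filter (adjusted p = 0.024). In absorptive cells Bsg differed by -0.32 ± 0.19 and -0.28 ± 0.19 between the tissues, in GF and Abx_14D, and was not called. GF against Ctrl in cecal absorptive cells gave -0.40 ± 0.19 (adjusted p = 0.19).

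Slc16a3, which encodes the lactate exporter MCT4, was rare, with 222 transcripts in all 15916 cells, and lay mostly in absorptive cells. Absorptive cells of the cecum held 8, 5, 10 and 6 transcripts in GF samples 1 to 4, 5, 6, 39 and 20 in Abx_14D, 2, 2, 5 and 11 in Abx_4D and 0, 2, 2 and 6 in Ctrl. These are 9.72, 3.82, 3.39 and 2.02 CPM in GF, 4.57, 4.58, 5.48 and 6.47 CPM in Abx_14D, 4.25, 2.51 and 6.70 CPM in Abx_4D and 5.30, 0.920 and 2.48 CPM in Ctrl, leaving out the 2 samples under 20 cells. Cecal crypt sums held 0 transcripts in all 4 Abx_14D samples and at most 1.64 CPM elsewhere. Absorptive cells were higher in the cecum by 4.06 ± 0.45. Slc16a3 passed the low-count filter through absorptive cells alone, so that a difference was built into this test. Against Ctrl, the log2 fold changes in cecal absorptive cells were 0.90 ± 0.64 (GF), 1.37 ± 0.59 (Abx_14D) and 1.08 ± 0.69 (Abx_4D), none of them called. The 95% interval for Abx_14D ran from 0.14 to 2.60. Slc16a3 did not pass the low-count filter in any fit that held colon cells.

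Slc5a8, the sodium-coupled carrier set beside the members, differed in cecal absorptive cells where Slc16a1 was not called. It read 126, 122, 99.5 and 152 CPM in GF, 127, 139, 115 and 88.3 CPM in Abx_14D, 127, 73.2 and 76.1 CPM in Abx_4D and 215, 271 and 291 CPM in Ctrl. All 3 groups lay under all Ctrl values, with log2 fold changes of -1.07 ± 0.20 (GF, adjusted p = 0.00082), -1.17 ± 0.20 (Abx_14D, adjusted p = 0.00049) and -1.57 ± 0.23 (Abx_4D, adjusted p = 0.00023), all against the same Ctrl samples. In cells with 80 to 160 marker transcripts per 10000, a narrower gate with fewer cells, these were -0.80, -0.64 and -1.48 and none was called (adjusted p = 0.26, 0.42 and 0.39). Slc5a8 was higher in the colon than in the cecum, by 1.72 ± 0.21 (GF) and 1.89 ± 0.21 (Abx_14D) in absorptive cells and by 1.45 ± 0.18 and 1.54 ± 0.18 in crypt cells. The highest adjusted p of these 4 was 4.1e-06. The sodium-coupled carrier was thus higher in the colon in both classes, and Slc16a1 was lower there in crypt cells of both groups and in Abx_14D absorptive cells.

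Acsm3 and Acss2 showed the same order, higher in the colon and in crypt cells, and Slc16a1 the opposite order. Acsm3 encodes a mitochondrial medium-chain acyl-CoA synthetase that also takes butyrate, and Acss2 the acetyl-CoA synthetase of cytosol and nucleus. For these 3 genes the 250 bases before the RefSeq transcription start are printed, since the 3 genes ran in opposite directions between tissues and classes. The sequences are from the RefSeq table of build GRCm38.p6, not the GRCm39 build of the counts, on the plus strand and 5′ to 3′. Capitals mark matches on either strand to the GC box (GGGCGG), the CCAAT box (CCAAT) and the E-box (CACGTG).
Acsm3: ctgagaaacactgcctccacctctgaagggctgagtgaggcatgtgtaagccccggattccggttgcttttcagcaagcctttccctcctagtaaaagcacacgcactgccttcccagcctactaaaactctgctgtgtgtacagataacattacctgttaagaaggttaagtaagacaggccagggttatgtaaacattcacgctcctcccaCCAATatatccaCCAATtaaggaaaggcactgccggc
Acss2: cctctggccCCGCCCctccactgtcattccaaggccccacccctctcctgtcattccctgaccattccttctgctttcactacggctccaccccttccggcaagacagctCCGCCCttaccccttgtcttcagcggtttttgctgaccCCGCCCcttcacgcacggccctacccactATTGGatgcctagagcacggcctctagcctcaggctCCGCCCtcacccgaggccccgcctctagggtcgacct
Slc16a1: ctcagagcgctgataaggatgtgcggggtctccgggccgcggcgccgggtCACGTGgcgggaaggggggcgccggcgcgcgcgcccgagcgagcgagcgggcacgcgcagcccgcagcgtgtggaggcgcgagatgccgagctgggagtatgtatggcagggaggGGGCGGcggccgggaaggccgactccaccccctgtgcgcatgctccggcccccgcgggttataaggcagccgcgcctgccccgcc
They lie at chr7:119760673-119760922 (Acsm3), chr2:155517793-155518042 (Acss2) and chr3:104638414-104638663 (Slc16a1).

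Acsm3 has CCAAT letters at -37 to -33 and at -25 to -21 from the start and no GC box, in a window of 49.2% G and C with 5 CG dinucleotides. Acss2 has 4 GC boxes and 1 CCAAT box in a window of 64.0% G and C with 13 CG dinucleotides. Slc16a1 has 1 GC box and 1 E-box, with 76.4% G and C and 37 CG dinucleotides. Of 32851 RefSeq windows of the same length, with a median of 52.4% G and C, 32.7% hold the GC box, 33.8% the CCAAT box and 6.02% the E-box. The letters CAAAGTCCA (an HNF4 core, in 0.384% of windows) and TTTATNG (a CDX core, in 9.81%) are in none of the 3 windows. Acsm3 and Acss2, which moved together between tissues, share CCAAT letters in these windows, as a match of letters and not as a site. The windows of Acss1 and Slc5a8, genes also higher in colon crypt cells, hold 0. For Ffar2, windows 1 to 3 hold 0 and window 4 holds 1. A link of these letters to the levels was not tested.

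**Figure D2:**
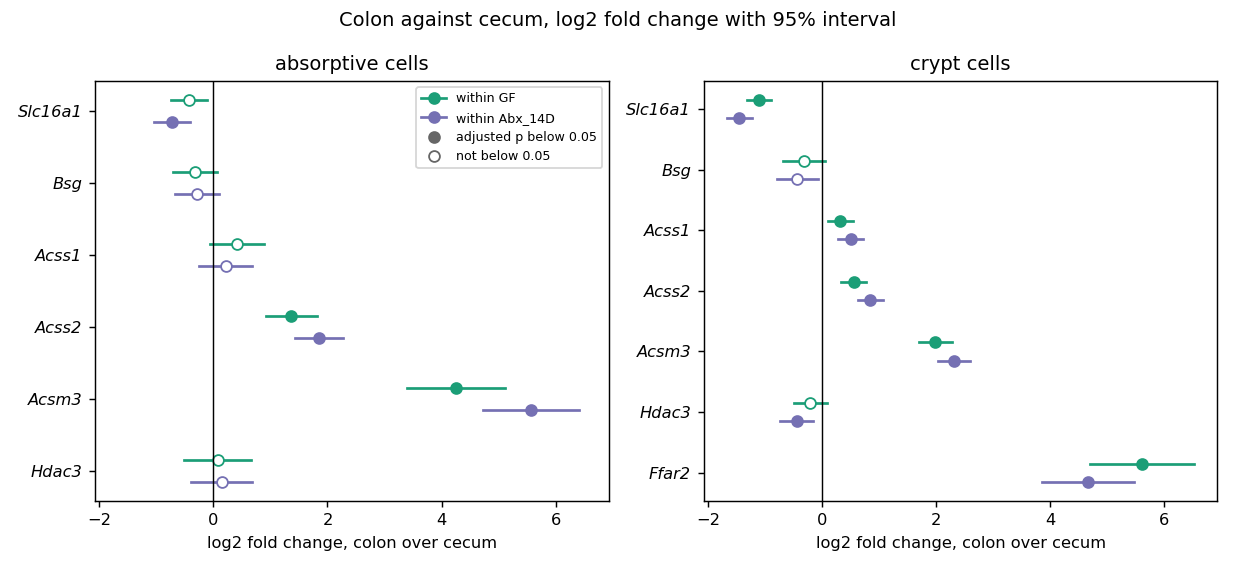
Log2 fold change, colon over cecum, of each member tested in absorptive and crypt cells, within GF and within Abx_14D, with 95% intervals from edgeR. Acsm3 lies between 1.99 and 5.57 and Slc16a1 between -1.45 and -0.42, and the intervals of Bsg include 0 in 3 of 4 contrasts.

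Acsm3 lay far apart between the tissues in absorptive cells, near the limit of detection on the cecal side, where it was too low to pass the filter alone. Colon absorptive cells held 72.7, 59.5, 91.7 and 83.01 CPM in GF, against 6.07, 3.06, 2.38 and 5.05 CPM in cecal GF absorptive cells. In Abx_14D they held 138, 177, 139 and 34.9 CPM in the colon, against 2.74, 1.53, 1.83 and 4.20 CPM in the cecum. The lowest colon value, in Abx_14D sample 4, was above the highest cecal one, and the log2 fold changes were 4.25 ± 0.42 in GF and 5.57 ± 0.41 in Abx_14D. Acsm3 entered this test through the colon alone, where it is high, so that a difference was built into it. In cells between 80 and 160 marker transcripts per 10000 the log2 fold changes were 3.99 in GF and 5.57 in Abx_14D.

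Crypt cells held 229, 192, 205 and 238 CPM of Acsm3 in colon GF, against 63.6, 50.2, 54.9 and 48.5 CPM in cecal GF. In Abx_14D the values were 240.2, 259, 273 and 237 CPM in the colon, against 62.4, 50.9, 36.5 and 53.8 CPM in the cecum. The tissues again lay apart, by 1.99 ± 0.14 in GF (adjusted p = 1.7e-09) and 2.31 ± 0.14 in Abx_14D (adjusted p = 1.7e-10). Within a tissue, absorptive cells were lower than crypt cells, with log2 fold changes of -4.17 ± 0.13 in the cecum and -1.28 ± 0.16 in the colon (adjusted p = 1.2e-06 in the colon). The cecal test held Acsm3 through crypt cells alone, where it is high, so that a difference was built into it.

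The level of Acsm3 along the absorptive marker score ran differently in the tissues, given here as a description with no test. The bins hold GF and Abx_14D cells outside the goblet, enteroendocrine, tuft and immune gates. Crypt-gated and ungated cells are included, so the bins differ from the absorptive class. In the colon it averaged 207 CPM in cells under 20 marker transcripts per 10000, 307 CPM from 40 to 80 and 208 CPM from 80 to 160, over 8 samples each. From 160 to 320, where 2 colon samples had 20 cells, it averaged 41.6 CPM. In the cecum it averaged 59.8 CPM under 20, 20.7 CPM from 40 to 80, 7.16 CPM from 80 to 160 and 2.31 CPM from 160 to 320, over 8, 8, 7 and 6 samples. The cecal level was thus lower at each of these steps, and the colon level was higher from 40 to 80 than under 20 and low only from 160. Acss2 averaged 268 CPM in colon cells and 83.4 CPM in cecal cells from 40 to 80, and 178 CPM and 56.2 CPM from 80 to 160. Under 20, Acss2 averaged 191 CPM in colon cells and 138 CPM in cecal cells. Slc16a1 was higher with the score up to 160 in both tissues, with 101 CPM in colon cells and 224 CPM in cecal cells under 20, and 318 CPM and 545 CPM from 80 to 160. From 160 to 320 it averaged 424 CPM over 2 colon samples and 577 CPM over 6 cecal samples. At 320 and over, it averaged 517 CPM over 5 cecal samples.

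**Figure D3:**
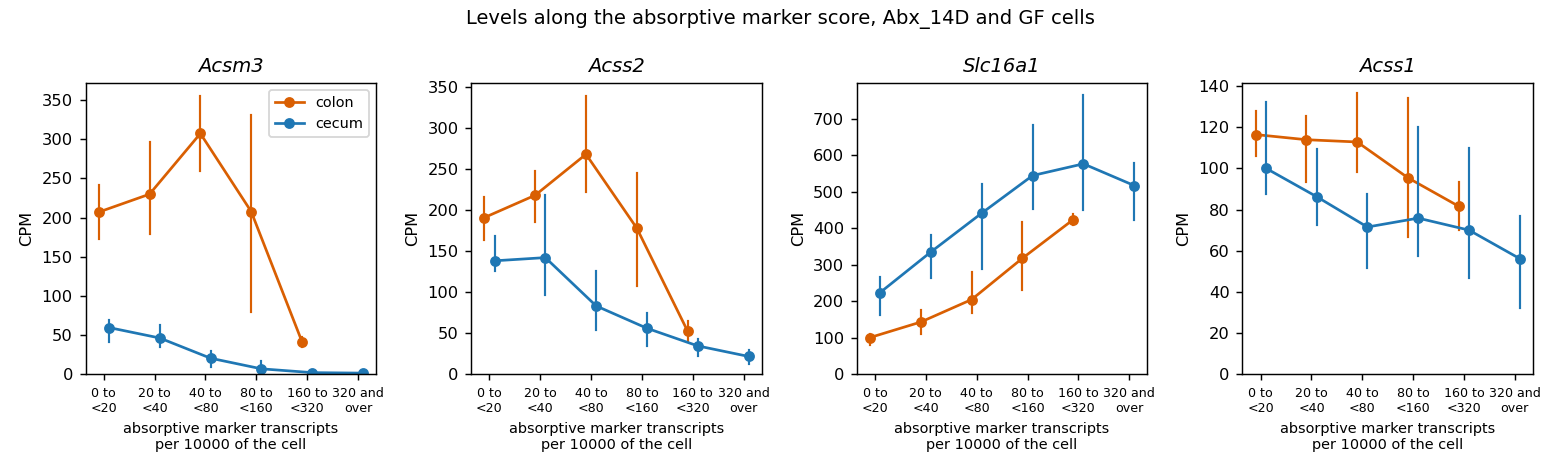
Mean level (CPM) of genes including Acsm3, Acss2 and Slc16a1 along bins of the absorptive marker score (marker transcripts per 10000) in colon and cecum. Means are over GF and Abx_14D samples with at least 20 cells in the bin, and bars span the lowest and highest sample. Bins hold all cells outside the goblet, enteroendocrine, tuft and immune gates, crypt-gated cells included. Acsm3 in the cecum drops to 7.16 CPM in the bin from 80 to 160, where the colon stands at 208 CPM.

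Between conditions, Acsm3 in colon absorptive cells averaged 76.7 ± 13.8 CPM in GF, against 122 ± 61.1 CPM in Abx_14D (mean ± SD, n = 4 each), and was not called. The log2 fold change was -0.72 ± 0.33 (adjusted p = 0.4). Without colon Abx_14D sample 4, the lowest of its group, it passed, at -1.02 (adjusted p = 0.0069). It also passed with all samples kept, without the low-count filter (-0.72, adjusted p = 0.016) and in cells with 80 to 160 marker transcripts per 10000 (-1.03, adjusted p = 0.035). Acss2 averaged 79.5 ± 14.9 CPM in GF and 121 ± 34.6 CPM in Abx_14D, a difference of -0.59 ± 0.21 (adjusted p = 0.22). Whether the GF difference itself depended on the tissue was tested in 1 fit of both tissues. There 0 of 6 members were called, where 0% of 9359 genes were (730 genes at an unadjusted p below 0.05, and 34 called by DESeq2, 0 of them members). Acsm3 had the lowest p of the members, at -1.32 ± 0.64 (unadjusted p = 0.049, adjusted p = 0.64).

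Acsm3 in cecal crypt cells read 63.6, 50.2, 54.9 and 48.5 CPM in GF, 62.4, 50.9, 36.5 and 53.8 CPM in Abx_14D, 52.6, 60.3, 53.8 and 54.8 CPM in Abx_4D and 78.2, 73.7, 78.3 and 54.5 CPM in Ctrl. Ctrl sample 4 overlapped the other groups. Differences from Ctrl were -0.38 ± 0.16 (GF), -0.48 ± 0.16 (Abx_14D) and -0.36 ± 0.16 (Abx_4D), with adjusted p of 0.21, 0.14 and 0.47 from edgeR. Acsm3 in cecal absorptive cells did not pass the low-count filter. Acsm3 lies opposite Eri2, and the use of strand in counting is not given, so reads of the pair cannot be told apart where they overlap.

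Acss2 was higher in the colon in both classes. Colon absorptive cells held 83.2, 72.2, 98.5 and 64.1 CPM in GF, against 32.8, 28.3, 24.8 and 38.7 CPM in cecal GF, and 123, 165, 115 and 80.4 CPM in Abx_14D, against 36.6, 32.04, 30.1 and 37.2 CPM in cecal Abx_14D. No values overlapped, and the log2 fold changes were 1.37 ± 0.22 in GF (adjusted p = 5e-05) and 1.85 ± 0.20 in Abx_14D (adjusted p = 2.9e-07). With the gate thresholds doubled, which left 1 colon sample per group, the log2 fold changes fell to 0.11 and 0.86. In cells between 80 and 160 marker transcripts per 10000 they were 1.51 (adjusted p = 0.0035) and 1.61 (adjusted p = 0.0012). Crypt cells held 208, 216, 211 and 232 CPM in colon GF, against 159.8, 165, 135 and 131 CPM in cecal GF, a difference of 0.55 ± 0.10 (adjusted p = 0.00058). Abx_14D crypt cells held 235, 242, 240.2 and 208 CPM in the colon, against 123, 147, 111 and 134 CPM in the cecum, a difference of 0.85 ± 0.10 (adjusted p = 3.2e-06).

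Absorptive cells had less Acss2 than crypt cells, with log2 fold changes of -1.97 ± 0.087 in the cecum (adjusted p = 6.8e-16) and -1.16 ± 0.11 in the colon (adjusted p = 3.5e-08). Against Ctrl, Acss2 in cecal absorptive cells differed by -0.31 ± 0.22 (GF), -0.19 ± 0.22 (Abx_14D) and -0.26 ± 0.25 (Abx_4D), none called. Acss2 overlaps Gss on the opposite strand, a gene of glutathione synthesis with 21467 transcripts against 38456 of Acss2, and their reads cannot be told apart where they overlap.

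Acss1, the mitochondrial acetyl-CoA synthetase, differed less between tissues. In crypt cells it read 122, 107, 139 and 132 CPM in colon GF, against 100.1, 101, 91.3 and 107 CPM in cecal GF. In Abx_14D it read 115, 129.6, 117 and 129.5 CPM in the colon, against 84.8, 101, 83.5 and 77.2 CPM in the cecum. Colon GF sample 2 fell just under the highest cecal GF sample, while the Abx_14D groups lay apart, and the log2 fold changes were 0.32 ± 0.11 (adjusted p = 0.038) and 0.50 ± 0.11 (adjusted p = 0.001). The GF call was lost with the replicate number as a block (adjusted p = 0.051) and without any 1 of cecum GF samples 1, 2 and 3 and colon GF samples 1, 3 and 4 (0.27 to 0.33, adjusted p = 0.058 to 0.13). In absorptive cells Acss1 differed by 0.41 ± 0.23 (GF) and 0.22 ± 0.23 (Abx_14D) and was not called.

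Acss1 was the 1 member whose GF difference was called as unlike in the 2 classes. In cecal absorptive cells it read 76.5, 70.3, 41.8 and 68.7 CPM in GF, against 76.8, 92.5 and 92.8 CPM in Ctrl, a log2 fold change of -0.49 ± 0.23 (adjusted p = 0.17). Crypt cells read 100.1, 101, 91.3 and 107 CPM in GF, against 72.3, 94.97, 90.6 and 82.3 CPM in Ctrl, a log2 fold change of 0.23 ± 0.12 (adjusted p = 0.35). The GF values were the lower ones in absorptive cells and mostly the higher ones in crypt cells. The difference between these effects was -0.71 ± 0.20 (adjusted p = 0.042), the 1 call among 7 members tested, where 4.69% of genes were called. It was lost without cecum Ctrl sample 3 (-0.71, adjusted p = 0.14) or 4 (-0.61, adjusted p = 0.22), and without GF sample 3 (-0.55, adjusted p = 0.16) or 4 (-0.74, adjusted p = 0.068). The call was lost too with the gate thresholds doubled, those of crypt cells included (-0.64, adjusted p = 0.15). It was also lost without samples over 0.5% mitochondrial transcripts (-0.73, adjusted p = 0.084) and in the narrower gates (-0.91, adjusted p = 0.55). Absorptive cells had less Acss1 than crypt cells in the colon, with a log2 fold change of -0.64 ± 0.12 (adjusted p = 0.0001). In the cecum the difference was -0.39 ± 0.087 (adjusted p = 0.00026) and turned to 0.10 (adjusted p = 0.32) with TMM factors. Acss1 overlaps E130215H24Rik on the opposite strand, which had 76 transcripts.

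Ffar2, the receptor for acetate and propionate, was found in secretory and crypt cells of the colon and was near 0 in absorptive cells. Over GF and Abx_14D, 50.5% of 643 colon goblet cells held at least 1 Ffar2 transcript, 30 of 45 enteroendocrine cells, and 12.3% of 4997 crypt cells. In absorptive cells, where the gene was near 0, 3 of 351 colon cells held one (0.855%), at a median depth of 18026 transcripts against 14920 in crypt cells and 19784 in goblet cells, so the crypt and goblet shares lay above that background. In the cecum, over its 4 groups, 16.0% of 426 goblet cells, 11 of 23 enteroendocrine cells, 0.858% of 3263 crypt cells and 0.234% of 1711 absorptive cells held one. Absorptive cells were lower than crypt cells in the colon, with a log2 fold change of -3.95 ± 0.50. Ffar2 entered that test through crypt cells alone, where it is high, so that a difference was built into it.

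**Figure D4:**
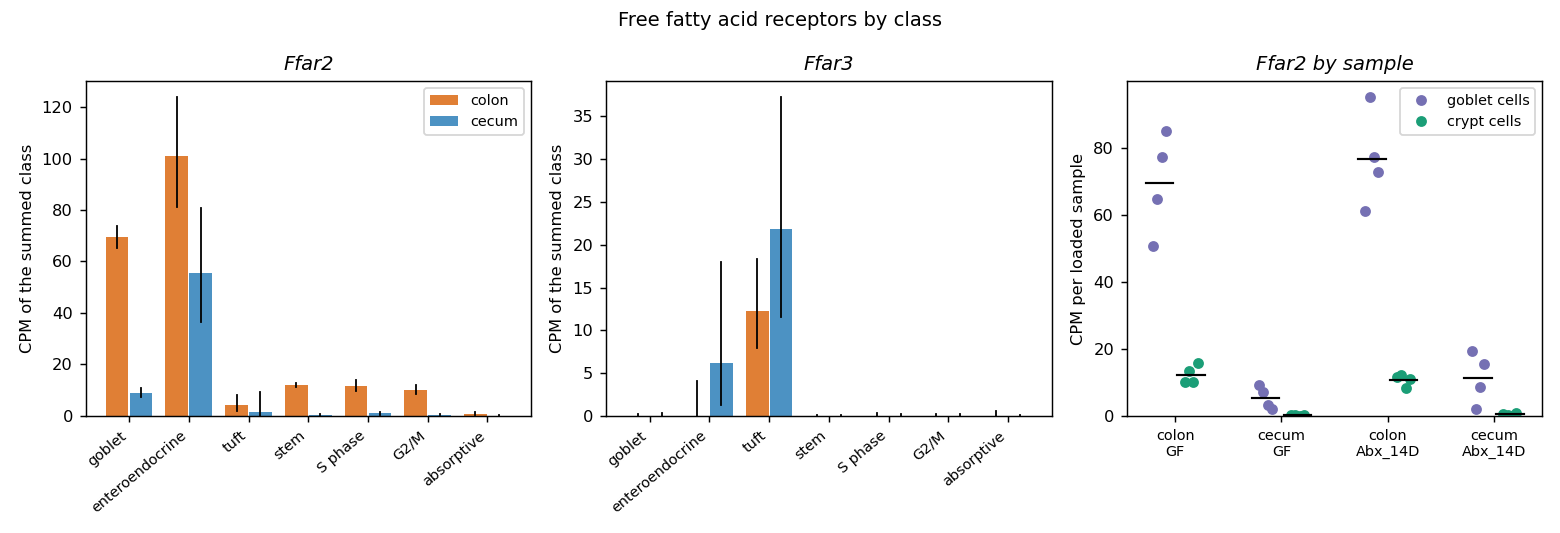
Level (CPM) of Ffar2 in crypt and goblet cells of each sample, colon beside cecum within GF and Abx_14D, and of Ffar3 by cell class. Colon crypt samples sit between 8.49 and 15.9 CPM of Ffar2 and cecal ones under 1 CPM, and all Ffar3 transcripts of the colon lie in tuft cells.

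Colon crypt cells held 10.02, 13.4, 10.02 and 15.9 CPM of Ffar2 in GF, against 0.244, 0.299, 0.138 and 0.404 CPM in cecal GF. In Abx_14D they held 11.6, 12.2, 8.49 and 11.2 CPM in the colon, against 0.657, 0.399, 0 and 0.836 CPM in the cecum. The tissues lay far apart, with log2 fold changes of 5.61 ± 0.44 in GF and 4.66 ± 0.39 in Abx_14D. Ffar2 passed the low-count filter through the colon alone, where it is high, so that a difference was built into this test. The cecal side rests on 4 transcripts in GF and 8 in Abx_14D. Summed over samples, the ratio of colon to cecum was 51.1 in GF (95% counting interval 19.9 to 188, from 564 and 4 transcripts) and 27.4 in Abx_14D (13.8 to 63.9, from 395 and 8). Between GF and Abx_14D, colon crypt cells differed by 0.14 ± 0.18 (adjusted p = 0.82).

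The Ffar2 of colon crypt cells was not limited to cells with goblet transcripts. In the 1063 colon crypt cells with 0 goblet marker transcripts it stood at 13.2 CPM (95% interval 11.1 to 15.6), and in those with up to 2 and from 2 to 10 per 10000 at 10.7 and 9.67 CPM. In the 150 cells with 10 to 50 it stood at 37.3 CPM (30.6 to 45.1). The value was therefore present at the lowest goblet score and higher at the highest. Stem-gated, S-phase and G2 or mitotic cells of the colon held 12.1, 11.7 and 10.1 CPM, against 0.373, 0.965 and 0.512 CPM in the 4 cecal groups together. These intervals cover counting error only.

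Goblet cells, the mucus makers, held 50.6, 64.7, 77.2 and 85.1 CPM of Ffar2 in colon GF, against 9.35, 7.07, 3.31 and 1.94 CPM in cecal GF. In Abx_14D they held 61.2, 95.2, 77.3 and 72.8 CPM in the colon, against 19.3, 2.04, 8.53 and 15.5 CPM in the cecum. The tissues did not overlap in either group. With 4 samples against 4, a two-sided exact permutation test cannot go below p = 0.0286, which both reached, and over the 15 comparisons of members in goblet cells that value adjusts to 0.0613, so none passed. The same p of 0.0286 was reached by Acss1 (112 ± 12.2 CPM in colon GF and 80.9 ± 11.1 CPM in cecal GF; 145 ± 6.67 and 57.97 ± 6.55 CPM in Abx_14D), Acss2 in both groups and Acsm3 in GF, all higher in the colon in this exact permutation test (SD, n = 4 each). Slc16a1 in goblet cells averaged 79.5 ± 14.6 CPM in colon GF and 267 ± 126 CPM in cecal GF, where 1 pair of samples overlapped and the exact permutation p was 0.0571. The direction between tissues in goblet cells was that of crypt cells for Slc16a1, Acss1, Acss2, Acsm3 and Ffar2.

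Enteroendocrine cells, the hormone makers, were too few per sample for a test. Summed over GF and Abx_14D, the colon's 45 cells held 101 CPM of Ffar2 (95% counting interval 81.2 to 124), and the 23 cecal cells 55.5 CPM (36.6 to 80.8), the cecal value over its 4 groups. In the 22 colon cells with more Tph1 than Gcg and Pyy together, which marks serotonin makers, Ffar2 stood at 124 CPM (93.1 to 161). In the 12 cells with more Gcg and Pyy, the peptide-hormone genes of L cells, it stood at 36.8 CPM (17.7 to 67.7). The 11 cells with neither side ahead held 140 CPM (91.7 to 206). In the cecum these 3 subsets held 13, 2 and 12 transcripts.

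Ffar3, the receptor that prefers propionate and butyrate, was seen in tuft cells, the chemosensory cells of the epithelium. Of 41 transcripts in the groups compared, 37 lay in tuft cells. Colon tuft cells held 24 transcripts in 21 of 200 cells (12.3 CPM, 95% counting interval 7.89 to 18.3), and cecal tuft cells 13 in 11 of 44 cells (21.8 CPM, 11.6 to 37.3). By sample, colon tuft cells held 4, 7, 2 and 4 transcripts in GF and 1, 1, 3 and 2 in Abx_14D, so that all 8 colon samples had at least 1. Elsewhere in the colon the count was 0, which allows up to 0.0365 CPM in crypt cells and 0.208 CPM in goblet cells. The cecum held 3 transcripts in enteroendocrine cells and 1 in a G2 or mitotic cell. Of the immune markers, Ptprc, which encodes CD45, was high in tuft cells, at 406 CPM in the colon and 304 CPM in the cecum. Cd68, Itgam and Cd79a had 4, 12 and 1 transcripts in the colon, all other immune markers were at 0 there, in the cecum all but Ptprc were, and the 187 colon tuft cells with none but Ptprc held all 24 Ffar3 transcripts. Ffar3 was tested in no fit.

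Hcar2, the receptor for nicotinic acid and butyrate, was at the edge of detection, with 12 transcripts in 11 of 15916 cells. The groups compared held 5 in the colon (0.0382 CPM, 95% counting interval 0.0124 to 0.0891) and 5 in the cecum (0.0418 CPM, 0.0136 to 0.0976). No transcript fell in absorptive cells, a count of 0 that allows up to 0.429 CPM in the colon and 0.0987 CPM in the cecum. By sample, cecal cells held 2, 0, 1 and 1 transcripts in Ctrl, 0, 0, 1 and 0 in Abx_14D and 0 in every GF and Abx_4D sample. Colon cells held 1, 0, 1 and 0 in GF and 1, 1, 1 and 0 in Abx_14D. Hcar2 entered no fit, so differences between groups or tissues were not tested.

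Hdac3, the deacetylase of the NCoR/SMRT co-repressor complex, was lower in absorptive than in crypt cells. The difference was -1.16 ± 0.08 in the cecum (adjusted p = 3.1e-12) and -0.70 ± 0.15 in the colon (adjusted p = 0.00055), where it was lost with the gate thresholds doubled (-0.63, adjusted p = 0.12). In crypt cells it read 31.9, 33.1, 29.1 and 28.3 CPM in colon Abx_14D, against 46.5, 34.1, 49.6 and 36.8 CPM in cecal Abx_14D, a log2 fold change of -0.45 ± 0.14 (adjusted p = 0.016). The colon values all lay under the cecal ones, yet the call was lost without cecum Abx_14D sample 3 (-0.35, adjusted p = 0.075), with the gate thresholds doubled (-0.31, adjusted p = 0.14) and without samples over 0.5% mitochondrial transcripts (-0.39, adjusted p = 0.11). In GF it read 35.8, 33.5, 27.04 and 35.6 CPM in the colon, against 42.9, 36.5, 35.1 and 38.4 CPM in the cecum, and was not called (-0.21 ± 0.14, adjusted p = 0.33). Between conditions its log2 fold changes against Ctrl in the cecum ran from -0.32 to -0.10 in absorptive cells and from -0.22 to 0.080 in crypt cells.

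Of 55 other genes of the pathway in 5 lists, 37 were tested in cecal absorptive cells. Against Ctrl, 1 was higher and 2 lower in GF, 2 higher and 2 lower in Abx_14D, and 1 higher and 2 lower in Abx_4D, where 12.9%, 8.06% and 3.66% of all genes were called. Oxct1, the enzyme that activates ketone bodies for oxidation, was the one higher in all 3, at 1.23 ± 0.23 (GF), 2.06 ± 0.23 (Abx_14D) and 1.17 ± 0.24 (Abx_4D). It averaged 96.5 ± 20.3, 168 ± 28.5 and 88.2 ± 21.3 CPM there, against 39.8 ± 6.68 CPM in Ctrl (SD, n = 4, 4, 3 and 3). Tbl1xr1, a subunit of the complex that holds HDAC3, was lower in all 3, at -0.61 ± 0.17, -0.75 ± 0.17 and -0.84 ± 0.19, as was Slc5a8. Acaa2, a thiolase of beta-oxidation, was higher in Abx_14D (0.75 ± 0.23). Between the microbe-depleted groups, Oxct1 was lower in GF than in Abx_14D (-0.83 ± 0.19, adjusted p = 0.012), the 1 call of 37 (2.7% of all genes). Of 40 tested in cecal crypt cells, 2 were called in GF, Abcg2 (0.89 ± 0.16) and Slc16a9 (0.63 ± 0.15), 1 in Abx_14D (Slc16a9, 0.59 ± 0.15) and 0 in Abx_4D, against 4.91%, 2.59% and 0.604% of all genes.

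Between tissues, 11 of the 19 genes of the oxidation list were lower in colon crypt cells in Abx_14D and 0 higher, where 37.4% of all genes were called in either direction. In GF, 2 of 19 were lower, Bdh1 and Mmut, a share under the 18.6% of all genes. Bdh1, which makes the ketone body hydroxybutyrate, averaged 63.6 ± 5.81 CPM in colon GF and 124 ± 31.7 CPM in cecal GF, and 57.1 ± 8.79 CPM in colon Abx_14D and 127 ± 13.04 CPM in cecal Abx_14D (SD, n = 4 each). Acss3, a mitochondrial synthetase that prefers propionate, passed the filter through colon crypt cells alone, at 19.0 ± 2.52 CPM in colon GF crypt cells and 0.956 ± 0.542 CPM in cecal ones (4.39 ± 0.40; 4.92 ± 0.41 in Abx_14D). Slc16a9 and Abcg2, which encodes a urate exporter, were lower in colon crypt cells of both groups, Slc16a9 at -2.14 ± 0.16 and -2.34 ± 0.16. Over all lists, 4 genes were higher and 4 lower in GF and 5 higher and 17 lower in Abx_14D, of 41 tested. The GF share was near that of all genes. In absorptive cells 35 were tested, with 3 higher and 3 lower in GF and 4 higher and 1 lower in Abx_14D, where 16.5% and 23.4% of all genes were called. Slc16a10, an aromatic amino acid carrier, was higher in the colon by 2.38 ± 0.52 (GF) and 1.80 ± 0.47 (Abx_14D), and Oxct1 by 1.70 ± 0.19 and 0.90 ± 0.18. Slc16a9 differed there by -1.07 ± 0.25 in GF, and Abcg2 by -1.33 ± 0.26 in Abx_14D.

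Between the classes, 12 of 40 list genes were higher and 22 lower in cecal absorptive cells, and 18 of 41 were higher and 13 lower in colon absorptive cells, with library-size scaling. These shares are near the 83.9% and 70.3% of all genes. The largest differences in the cecum were those of Slc16a7 (-4.68 ± 0.38), Slc16a6 (-4.09 ± 0.26) and Slc16a10 (-3.92 ± 0.17), all lower in absorptive cells, and of Abcg2 (2.59 ± 0.094), higher there. In the colon they were those of Acss3 (-5.42 ± 0.40), Slc16a7 (-5.09 ± 0.41), Slc16a6 (-4.13 ± 0.48) and Ffar4, a receptor of long-chain fatty acids (-2.71 ± 0.31), all lower in absorptive cells. In the colon, 3 synthetases and 0 receptors of the lists were tested within absorptive cells, against 4 and 1 within crypt cells. Acss3 and Ffar4 thus passed the filter through crypt cells alone, so that a difference was built into their test. Of the carrier list, 6 genes (cecum) and 5 (colon) were tested within absorptive cells, against 9 within crypt cells of either tissue. Whether Slc16a6, Slc16a7 and Slc16a10 also passed through crypt cells alone was not examined. Slc5a8 was higher in absorptive cells of both tissues, by 0.94 ± 0.12 in the cecum and 1.06 ± 0.11 in the colon. The GF effect was called as unlike in the 2 cecal classes for 3 list genes, Oxct1 (1.27 ± 0.23, absorptive minus crypt), Slc5a8 (-1.02 ± 0.24) and Tbl1xr1 (-0.57 ± 0.16).

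The genes whose levels ran most like a member's were taken over the 46 sums of absorptive and crypt cells, among 9116 genes with a mean of at least 10 CPM. The sums share libraries and depth, and the correlation of log2(CPM + 1) is a description. Acsm3 and Acss2 had the same closest gene, Aopep, at r = 0.965 and 0.971. Slc16a1 ran most like Nudt4 (r = 0.958), Espn (0.950) and Fa2h (0.946), and Hdac3 most like Cct3 (0.939), G3bp1 (0.922) and Set (0.919). Bsg (Rmdn3, r = 0.862) and Acss1 (Pdzrn3, r = 0.774) had looser nearest genes.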

How the data were processed

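The authors deposited 1 matrix of raw transcript counts per cell and gene, with a cell table and a gene table that names GRCm39. The submitters' processing notes name mm39 and Seurat without versions. Sources used here give no aligner, counting tool or use of strand. The 8 deposited samples are sublibraries that mix all conditions, so groups were taken from the 32 loaded samples named in the cell table. Row sums equalled the table's totals for all 24609 barcodes, and 8693 barcodes under 500 transcripts were left out.

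Marker transcripts per 10000 set the gates: absorptive at least 80 with stem under 10 and no cycling gate, stem at least 20, S phase 8, G2 or mitosis 15, goblet 50, tuft and enteroendocrine 20, immune 10. The thresholds were set after the data were seen, as were 2 narrower gates (absorptive 80 to 160, stem-gated cells only). Cells within 10% of a threshold numbered 217 (absorptive) and 681 (stem) of 8067 in the colon and 203 and 395 of 6773 in the cecum. Doublets were left in and not called here.

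Counts were summed per loaded sample and class with at least 20 cells and tested by quasi-likelihood in edgeR 4.0.16 (R 4.3.3, limma 3.58.1), scaled by library size after filterByExpr, adjusted over all genes tested. Classes were compared with the loaded sample as a block. DESeq2 1.42.0 and TMM factors were alternatives. TMM moved the all-gene median by -0.16 to -0.096 in cecal absorptive comparisons with Ctrl and in absorptive comparisons of tissues, and by -0.11 in the class interaction. On simulated counts with 100 genes changed 2-fold and 100 changed 4-fold, 35 and 99 were recovered in the cecal absorptive comparison of GF with Abx_14D (9886 genes), 0 and 48 in the class interaction (12542 genes) and 11 and 76 in the tissue interaction (9359 genes). The changed genes were drawn from those above the median level, with the same dispersion for all genes and each sum drawn independently. These shares therefore do not speak for members of low level. Exact tests used scipy 1.17.1 under Python 3.11.15.

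Same-numbered samples deviated together (r over 0.1) in all 8 pairs only in the crypt comparison of tissues (r = 0.137 to 0.583 over 9278 genes); the labels name no shared batch. Values are from fits without a replicate block, and the blocked value stands beside a call it changes. The block gives each number a term shared by all groups in the fit. Pairing of colon and cecum samples by number within a group was not fitted. For every comparison the text names the members called. Members not called are counted, with values for some comparisons only. Of 5 lists it names the genes that passed, or the 4 with the largest change where more did, with Slc5a8 always beside the carriers. Mmut, and Bdh1 in GF, were chosen after their values were seen. Members and lists were chosen with earlier results of these data known. Intervals and limits cover counting error only, at 95% and 3 counts.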

Additional observations from a re-analysis of the deposited data

Results flagged for a closer look

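In cecal crypt cells, 3 samples stood apart from the others of their group by Dixon's gap, of 60 groups of samples looked at, where chance alone gives about 1 in 20. Bsg in Ctrl sample 2 was at 307.7 CPM, against 370.0 to 375.4 CPM in the other Ctrl samples. Hdac3 in Abx_4D sample 1 was at 57.37 CPM, against 41.89 to 44.06 CPM in the other Abx_4D samples. Slc16a1 in GF sample 3 was at 311.5 CPM, against 244.4 to 249.5 CPM in the other GF samples. In the cecum the difference of GF from Ctrl was unlike in absorptive and crypt cells for Acss1 (-0.7146, absorptive minus crypt, adjusted p = 0.042 from edgeR) and for Slc5a8 (-1.017, adjusted p = 0.015). The Slc5a8 call was lost without Ctrl sample 3 (-1.04, adjusted p = 0.05) or 4 (-0.94, adjusted p = 0.087), without GF sample 3 (-0.89, adjusted p = 0.063) and in the narrower gates (-0.42, adjusted p = 0.86).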

How the results depend on the processing

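Over all alternatives, 2026 values of the members and Slc5a8 kept their side of the threshold, 32 lost a call and 15 gained one. A called value changed sign in 1 case, Acss1 between cecal absorptive and crypt cells (0.10 with TMM factors, -0.01 with DESeq2), where the scaling moves all genes. Changes of sign between values not called were counted as kept, as for Bsg between tissues in GF absorptive cells (0.06 in the 80 to 160 gate). Acss1 between tissues in GF crypt cells was lost also without the low-count filter (0.32), with the gates doubled (0.32) and in stem-gated cells (0.33). Counts of called genes moved by over 1.5 times as follows, and the cause was not tested. Cecal absorptive cells called 217 (gate doubled), 661 (no low-count filter) and 3 (markers 80 to 160) in Abx_4D against Ctrl, 323 (without samples over 0.5% mitochondrial) and 76 (80 to 160) in Abx_14D, and 111 (80 to 160) in GF. GF against Abx_14D called 471 (no filter), 86 (mitochondrial) and 4 (80 to 160) there, and Abx_14D against Abx_4D 15 (DESeq2), 114 (no filter), 0 (mitochondrial), 1 (80 to 160) and 12 (replicate block). Colon absorptive cells called 420 (no filter) and 61 (80 to 160). Absorptive cells of colon against cecum called 356 (gate doubled) and 893 (80 to 160) in GF, 261, 961 and 1456 (mitochondrial) in Abx_14D, and their interaction 34 (DESeq2), 126 (no filter) and 2 (replicate block). Cecal crypt cells called 933 (no filter), 346 (gate doubled) and 362 (stem-gated) in GF against Ctrl, 486 (DESeq2), 582, 189, 157 and 107 (mitochondrial) in Abx_14D, and 181 (DESeq2), 265, 25 and 36 in Abx_4D. GF against Abx_14D called 111 (DESeq2), 298 (no filter), 7 (gate doubled) and 21 (mitochondrial) in cecal crypt and 244 (DESeq2) and 311 (no filter) in colon crypt cells. Colon against cecum crypt cells called 1302 in GF and 2300 in Abx_14D (stem-gated) and 2926 in Abx_14D (mitochondrial). The narrower gates called 6513 between cecal classes and 18 in the class interaction.

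Leaving out 1 sample gave 192 to 285 calls in cecal absorptive Abx_4D, 423 to 914 in Abx_14D and 746 to 1256 in GF against Ctrl, 138 to 338 in GF against Abx_14D, 3 to 13 in Abx_14D against Abx_4D, 92 to 192 in colon absorptive cells, and 1255 to 1597 (GF) and 1738 to 2305 (Abx_14D) between tissues, with 0 to 22 in their interaction. In crypt cells it gave 39 to 82, 188 to 305 and 415 to 538 against Ctrl (Abx_4D, Abx_14D, GF), 9 to 47 in GF against Abx_14D, 101 to 338 in the colon, and 1751 to 2659 (GF) and 3909 to 5001 (Abx_14D) between tissues. Between classes it gave 10319 to 10488 (cecum) and 8005 to 8454 (colon), and 284 to 550 in the class interaction.

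TMM factors turned the split of calls to 4863 higher and 5253 lower between cecal classes (2964 and 7564 with library sizes), 3897 and 4450 in the colon (3040 and 5484), 527 and 756 in cecal absorptive GF against Ctrl (710 and 561), 342 and 532 in Abx_14D (438 and 359), 147 and 279 in Abx_4D (169 and 193), 941 and 689 between tissues in GF absorptive cells (1112 and 432), 1173 and 1045 in Abx_14D (1560 and 626), and 204 and 400 in the class interaction (312 and 276). The replicate block changed no call of a member besides Acss1 and Slc16a1 between tissues in GF; same-numbered samples deviated together in 6 of 18 pairs of cecal absorptive, 15 of 24 of cecal crypt, 0 of 4 of colon absorptive and 2 of 4 of colon crypt samples. The doubled gate could not be fitted for colon absorptive cells alone, and between tissues its lone colon samples are assumed to vary like the others. Depth limits Hcar2, Ffar3 and Slc16a3.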

Other observations

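Colon Abx_4D sample 1, the 1 sample of that group with many cells, was compared with nothing. Its 650 crypt cells held 76.5 CPM of Slc16a1 (95% counting interval 69.1 to 84.5), 217 CPM of Acsm3 (204 to 230), 202 CPM of Acss2 (190 to 215), 101 CPM of Acss1 (92.8 to 111), 163 CPM of Bsg (152 to 174), 31.1 CPM of Hdac3 (26.5 to 36.4) and 8.22 CPM of Ffar2 (5.92 to 11.1). Its 27 goblet cells held 58.2 CPM of Ffar2 (35.6 to 89.9), and its 14 tuft cells held 3 transcripts of Ffar3.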
